A study of Mus musculus with 6 samples.

Results

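Translation initiation factors were examined as the 52 of 21887 mouse protein-coding genes whose symbol starts with Eif, leaving out the eIF2 kinases (Eif2ak). The rule reads the symbol only. Open chromatin was profiled in islets of 16-week-old mice with ATAC-seq, where Tn5 transposase tags accessible DNA. There were 6 libraries, 2 in each of 3 groups. In the first group, KO-Acsl4, islets of BetaRicKO mice, whose beta cells lack Rictor, received an adenovirus carrying Acsl4. In KO-GFP, islets of such knockout mice received a GFP adenovirus, and in WT-GFP islets of mice labelled wildtype received the GFP adenovirus. All islets were thus infected, for 48 h ex vivo, and about 50 were lysed per library. Rictor defines the kinase complex mTORC2, and Acsl4 is an acyl-CoA synthetase for polyunsaturated fatty acids. The sources used here do not name the Cre line behind the deletion, whole islets also hold cells other than beta cells, and whether a group's libraries came from separate mice is not given either. The p-values below thus rest on sample-to-sample spread that may be technical.

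Initiation factors load ribosomes onto mRNA. eIF2 carries the initiator methionyl-tRNA to the small ribosomal subunit, eIF2B recharges eIF2 with GTP, eIF3 is the scaffold on that subunit, and the eIF4 proteins bind the cap, unwind the leader and join it to the poly(A) tail. In beta cells, which make insulin at a high rate, the stress kinase PERK slows initiation by phosphorylating eIF2, and mTORC1 acts on initiation through the eIF4E-binding proteins.

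A gene counted as marked when a deposited peak overlapped 1000 bp on either side of its start or end, called a gene end here. There were 525 and 5874 peaks for the libraries labelled KO-Acsl4 1 and 2, 2206 and 4257 in those labelled KO-GFP 1 and 2, and 4442 and 1628 in those labelled WT-GFP 1 and 2. Gene ends held 35.8% and 5.29% of peaks in the KO-Acsl4 libraries, 67.2% and 75.5% in the KO-GFP libraries, and 70.9% and 21.7% in the WT-GFP libraries. Read depth is not stated in the sources used here. Rictor had no peak in any library. The Acsl4 gene held 6 peaks in the library labelled KO-GFP 1, 7 in that labelled WT-GFP 1 and 0 in the other 4, the Acsl4-virus libraries included, so every direction below holds for the labels as deposited, and library names below stand for those labels. Of 13 islet endocrine markers, only Nkx6-1 and Mafa were marked, in the libraries labelled KO-GFP 2 and WT-GFP 1. Ins1, Ins2, Gcg and Sst had no gene-end peak in any library, and neither had any of 6 exocrine and duct markers or 8 endothelial, stromal and immune markers. Islet identity was thus not checked by most of its defining genes.

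The DNA under or beside the peaks is shown for 8 members, 4 of them marked in 3 or more libraries (Eif2s1, Eif4a1, Eif4b and Eif5), 3 marked only in the KO-GFP group when set against WT-GFP (Eif3d, Eif4ebp2 and Eif4g1), and Eif2s2, a subunit of the eIF2 complex with no peak, for contrast. Each stretch is RefSeq sequence of GRCm38.p6, 5′ to 3′ on the strand of the gene, and ends just before the outermost start of the gene. It lies within 250 bp upstream of the listed start and outside every annotated gene. Capitals mark the letters GGGCGG (Sp1 family), CCAAT (NF-Y), and CCGGAAG or CGGAAGT (ETS family) on either strand.
Eif2s1 (chr12:78862009-78862071, + strand): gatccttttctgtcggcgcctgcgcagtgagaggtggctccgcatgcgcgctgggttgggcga
Eif4a1 (chr11:69672424-69672673, - strand): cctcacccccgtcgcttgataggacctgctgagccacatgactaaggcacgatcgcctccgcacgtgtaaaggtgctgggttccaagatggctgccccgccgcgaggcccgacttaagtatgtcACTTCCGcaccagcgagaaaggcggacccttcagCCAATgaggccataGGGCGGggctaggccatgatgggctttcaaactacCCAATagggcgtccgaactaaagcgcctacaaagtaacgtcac
Eif4b (chr15:102073523-102073772, + strand): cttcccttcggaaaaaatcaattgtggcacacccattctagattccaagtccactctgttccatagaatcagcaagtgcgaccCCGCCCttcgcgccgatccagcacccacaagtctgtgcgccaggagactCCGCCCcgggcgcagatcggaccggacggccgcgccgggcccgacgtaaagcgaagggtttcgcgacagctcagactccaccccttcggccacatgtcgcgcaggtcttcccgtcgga
Eif5 (chr12:111537851-111538100, + strand): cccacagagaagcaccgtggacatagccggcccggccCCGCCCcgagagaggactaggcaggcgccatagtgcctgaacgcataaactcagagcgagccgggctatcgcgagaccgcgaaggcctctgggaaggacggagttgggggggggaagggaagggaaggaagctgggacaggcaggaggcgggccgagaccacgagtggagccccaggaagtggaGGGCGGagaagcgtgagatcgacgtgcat
Eif3d (chr15:77970825-77971074, - strand): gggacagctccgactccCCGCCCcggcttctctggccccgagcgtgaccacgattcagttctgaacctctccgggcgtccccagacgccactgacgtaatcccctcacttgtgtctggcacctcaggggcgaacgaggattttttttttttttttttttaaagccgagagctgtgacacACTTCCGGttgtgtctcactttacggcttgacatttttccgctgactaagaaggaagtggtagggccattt
Eif4ebp2 (chr10:61452791-61452919, - strand): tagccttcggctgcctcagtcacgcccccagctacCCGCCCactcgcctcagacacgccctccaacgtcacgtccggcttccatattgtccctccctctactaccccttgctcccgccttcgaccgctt
Eif4g1 (chr16:20672477-20672719, + strand): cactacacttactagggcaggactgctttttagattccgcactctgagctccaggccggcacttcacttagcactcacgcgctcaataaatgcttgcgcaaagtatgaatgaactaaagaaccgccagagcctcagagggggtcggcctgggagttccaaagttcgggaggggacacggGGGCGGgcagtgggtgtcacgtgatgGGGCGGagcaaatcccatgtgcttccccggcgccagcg
Eif2s2 (chr2:154892907-154893156, - strand): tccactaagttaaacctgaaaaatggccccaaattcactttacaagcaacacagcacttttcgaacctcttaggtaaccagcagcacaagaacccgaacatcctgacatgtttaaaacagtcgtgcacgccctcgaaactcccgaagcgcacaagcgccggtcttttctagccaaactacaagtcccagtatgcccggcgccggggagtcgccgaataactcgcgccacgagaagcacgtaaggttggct
The Eif4a1, Eif4b and Eif5 stretches overlapped peaks of 3 libraries. Those of Eif2s1, Eif3d and Eif4ebp2 overlapped peaks of both KO-GFP libraries, that of Eif4g1 a peak of the library labelled KO-GFP 2 alone, and that of Eif2s2 none. The Eif2s1 and Eif2s2 stretches hold none of the letters searched. The Eif2s1 stretch is the whole gap of 63 bp to Atp6v1d, a vacuolar proton pump subunit.

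Initiation factor genes were marked mostly in 3 of the 6 libraries. The libraries labelled KO-Acsl4 1 and 2 marked 0 and 1 of the 52, where 1.02% and 1.58% of all protein-coding genes were marked. The libraries labelled KO-GFP 1 and 2 marked 11 (21.2%) and 25 (48.1%), against 8.2% and 17.3% of all genes. The libraries labelled WT-GFP 1 and 2 marked 15 (28.8%) and 2 (3.85%), against 16.7% and 2.0% of all genes. The members' share was above that of all genes in 5 libraries, the exception being KO-Acsl4 1. In that library and in KO-Acsl4 2, the share over all genes corresponds to 0.532 and 0.82 members, so 0 and 1 lie near the background. In all, 29 members (55.8%) were marked in at least 1 library, against 24.5% of all genes, and 8 (15.4%) in 3 or more, against 6.52%. The other 23 had no gene-end peak in any list.

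**Figure D1:**
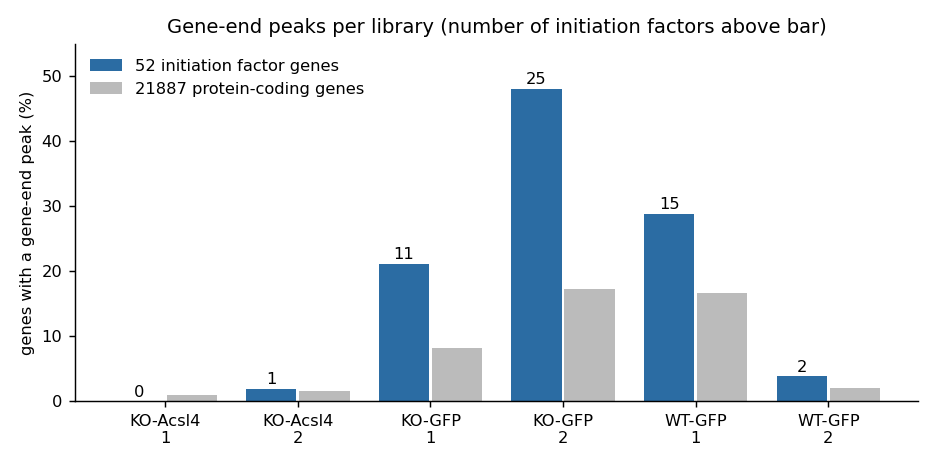
Share of genes with a gene-end peak (y axis, %) in each library (x axis), for the 52 initiation factor genes (blue, with the number marked above each bar) and for all 21887 protein-coding genes (grey). The blue bar is highest in the library labelled KO-GFP 2, at 48.1%, and the KO-Acsl4 libraries mark 0 and 1 members.

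The loss of Rictor is addressed by KO-GFP against WT-GFP. On average 34.6% ± 19 of members were marked in KO-GFP and 16.3% ± 17.7 in WT-GFP (SD, n = 2 each), a difference of 18.3 percentage points with an exact two-sided permutation p of 0.667. The groups overlapped, since the library labelled WT-GFP 1 lay above that labelled KO-GFP 1. The difference was 31.7 points without the library labelled KO-GFP 1, 4.81 without that labelled KO-GFP 2, 30.8 without that labelled WT-GFP 1 and 5.77 without that labelled WT-GFP 2. Set against the share of other genes marked in the same library, members were marked 2.59 and 2.79 times as often in the libraries labelled KO-GFP 1 and 2, and 1.73 and 1.93 times as often in those labelled WT-GFP 1 and 2. These ratios did not overlap between the groups. That of WT-GFP 2 rests on only 2 marked members, where the share over all genes corresponds to 1.04. The log2 difference of the ratios was 0.56, with an exact two-sided permutation p of 0.33. That is the smallest p that 2 libraries against 2 can give, so the difference does not pass a test. It was 1.13 with the better 50% of each list by score and 0.89 with each peak given to its nearest gene end only. In the nearest-end setting WT-GFP 2 marked 1 member. Of its 2 members, only Eif3a had a peak in the better 50% by score, at percentile 77.5 of the list, and Eif2s1 lay at 42.4. These ratios thus hang on very few genes.

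Eif3d, Eif4ebp2 and Eif4g1 were marked in both KO-GFP libraries and in neither WT-GFP library, which is 3 of 52 members (5.77%), against 1.04% of all genes. Members were marked more often than genes in general, so these shares differ in part for that reason. Of the 11 members marked in both KO-GFP libraries, 3 were absent from both WT-GFP lists. Of all 1447 genes marked in both KO-GFP libraries, 15.7% were. Eif3d is an eIF3 subunit that can itself bind the cap of some mRNAs. On chromosome 15 the library labelled KO-GFP 1 had an Eif3d peak at 77970626 to 77971149 and that labelled KO-GFP 2 at 77971000 to 77971154, with deposited scores of 3.58 and 2.97. The score was read as a −log10 q-value, and its rank within each list put these peaks at percentiles 37.7 and 11.5. Eif4ebp2, which holds back the cap-binding protein eIF4E until mTORC1 phosphorylates it, had peaks at 61452819 to 61452954 in KO-GFP 1 and 61452766 to 61452968 in KO-GFP 2 on chromosome 10, at percentiles 54.5 and 82.0. The scaffold gene Eif4g1 had peaks at 20672720 to 20672867 in KO-GFP 1 and 20672717 to 20672992 in KO-GFP 2 on chromosome 16, at percentiles 36.9 and 31.0. None of these peaks lay at the end of another protein-coding gene. In the libraries labelled WT-GFP 1 and 2, the nearest peak lay 29895 and 203344 bp from an Eif3d end, 22870 and 526506 bp from an Eif4ebp2 end and 123930 and 1196975 bp from an Eif4g1 end. No member showed the reverse pattern, which 0.0914% of all genes did. The count of 3 became 12 without the library labelled KO-GFP 1 and 10 without that labelled WT-GFP 1, and the reverse count became 3 without that labelled WT-GFP 2. With every list cut to its 525 best peaks the count was 0, and the difference in share was 2.88 points.

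The libraries labelled KO-GFP 2 and WT-GFP 1 had lists of similar length and marked 17.3% and 16.7% of all genes, but 25 and 15 members. They had 12 members in common, which is 48.0% of those in KO-GFP 2 and 80% of those in WT-GFP 1. Over all genes the shared part was 67.1% and 69.6%. The 3 members marked in WT-GFP 1 and not in KO-GFP 2 were Eif3h, Eif4a3 and Eif6. All 11 members of KO-GFP 1 were also marked in KO-GFP 2, as were 80.6% of all genes marked in KO-GFP 1.

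The addition of Acsl4 without Rictor is addressed by KO-Acsl4 against KO-GFP. Members marked averaged 0.962% ± 1.36 in KO-Acsl4 and 34.6% ± 19 in KO-GFP (SD, n = 2 each), a difference of -33.7 percentage points with an exact two-sided permutation p of 0.33, the smallest possible. The difference was -20.2 points without KO-GFP 2, -47.1 without KO-GFP 1, -18.3 with the better 50% of each list by score, and -3.85 with every list cut to 525 peaks. The same shares over all genes were 1.3% ± 0.391 and 12.8% ± 6.44, so members and genes in general were both marked less often in the KO-Acsl4 libraries. The 11 members marked in both KO-GFP libraries (Eif2a, Eif2s1, Eif3d, Eif4a1, Eif4b, Eif4e1b, Eif4ebp2, Eif4g1, Eif5, Eif5a and Eif5b) were marked in neither KO-Acsl4 library. They are 21.2% of members, against 5.79% of all genes. Of all 1447 genes marked in both KO-GFP libraries, 87.6% were likewise absent from both KO-Acsl4 lists, and of those lists 1 held 525 peaks and the other had 5.29% of its peaks at gene ends. No member was marked in both KO-Acsl4 libraries, as 12 genes in all were, and the pattern of KO-Acsl4 only fitted 0.00914% of all genes. Without the library labelled KO-GFP 1 the count of 11 became 25, and it was 0 with every list cut to 525 peaks. Without the library labelled KO-Acsl4 1, 1 member, Eif4ebp3, was marked in KO-Acsl4 only.

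Both changes at once separate KO-Acsl4 from WT-GFP, a comparison that shares its libraries with those above. The members' mean shares were 0.962% ± 1.36 in KO-Acsl4 and 16.3% ± 17.7 in WT-GFP (SD, n = 2 each), with a difference of -15.4 percentage points and an exact two-sided permutation p of 0.33, the smallest possible. It was -2.88 points without WT-GFP 1, -27.9 without WT-GFP 2, -4.81 with the better 50% of each list, -9.62 with the nearest gene end only and -0.962 with every list cut to 525 peaks. Eif2s1 alone was marked in both WT-GFP libraries and neither KO-Acsl4 library, which is 1.92% of members, against 1.32% of all genes. That share is near the background. The count was 2 without the library labelled WT-GFP 1 and 15 without that labelled WT-GFP 2. Members marked only in KO-Acsl4 numbered 0, against 0.00457% of all genes, and 1, Eif4ebp3, without the library labelled KO-Acsl4 1.

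The eIF2 complex was represented by its alpha subunit. Eif2s1, which encodes the subunit that stress kinases phosphorylate, was marked in 4 libraries, more than any other member. Eif2s1 was 1 of 4 eIF2 genes (25.0%) in each. Of all genes, 8.2% and 17.3% were marked in KO-GFP 1 and 2, and 16.7% and 2.0% in WT-GFP 1 and 2. On chromosome 12 it had peaks at 78861566 to 78862052 in the library labelled KO-GFP 1, 78861528 to 78862042 in KO-GFP 2, 78861555 to 78861944 in WT-GFP 1 and 78861563 to 78861771 in WT-GFP 2. In the same order the deposited scores were 12.2, 9.18, 4.74 and 2.53 and the percentiles 93.6, 71.8, 39.0 and 42.4, which are ranks within lists of different length and not signal. All 4 overlapped, and their centres lay 263 to 405 bp upstream of the Eif2s1 start and closer to Atp6v1d. The beta subunit gene Eif2s2 and the gamma subunit genes Eif2s3x and Eif2s3y had no gene-end peak. The nearest peak to Eif2s2 in any list was 80048 bp away. Of the 5 subunits of eIF2B, Eif2b2 (percentile 62.2) and Eif2b4 (43.0) were marked, in the library labelled KO-GFP 2 only, and Eif2b1, Eif2b3 and Eif2b5 in none. That is 40.0% in KO-GFP 2, against 17.3% of all genes, a share that rests on 2 marked genes.

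Of 14 genes of eIF3, 0 and 0 were marked in the libraries labelled KO-Acsl4 1 and 2, 1 and 7 (7.14% and 50.0%, against 8.2% and 17.3% of all genes) in KO-GFP 1 and 2, and 2 and 1 (14.3% and 7.14%, against 16.7% and 2.0% of all genes) in WT-GFP 1 and 2. In KO-GFP 1 and WT-GFP 1 the share was near the background. No eIF3 gene was marked in 3 libraries. Eif3a, the largest core subunit, had a peak over its start in KO-GFP 2, at 60790653 to 60790819 on chromosome 19 (percentile 52.5), and in WT-GFP 2, at 60790643 to 60790773 (77.5). Eif3j1, a loosely bound subunit, had peaks at 122028377 to 122028569 on chromosome 2 in KO-GFP 2 (72.8) and at 122028456 to 122028597 in WT-GFP 1 (85.4). Eif3f, at 108934203 to 108934445 on chromosome 7, had the highest rank of any member in KO-GFP 2 (88.9). Eif3b (3.28), Eif3e (6.15) and Eif3k (50.0) were marked in that library alone and Eif3h (53.6) in WT-GFP 1 alone. Eif3b had the lowest rank of any member there. Eif3c, Eif3g, Eif3i, Eif3j2, Eif3l and Eif3m had no gene-end peak.

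The eIF4 group of 17 genes held 0 and 1 marked members in the libraries labelled KO-Acsl4 1 and 2. It held 5 and 7 (29.4% and 41.2%, against 8.2% and 17.3% of all genes) in KO-GFP 1 and 2, and 6 and 0 (35.3% and 0%, against 16.7% and 2.0% of all genes) in WT-GFP 1 and 2. Eif4a1, the helicase of the cap-binding complex, was marked in 3 libraries by peaks at 69672342 to 69672648 on chromosome 11 in KO-GFP 1, 69672342 to 69672647 in KO-GFP 2 and 69672460 to 69672643 in WT-GFP 1. Their percentiles were 77.8, 54.1 and 44.4. Eif4b, which stimulates that helicase, had peaks at 102073743 to 102073874 on chromosome 15 in KO-GFP 1, 102073728 to 102073933 in KO-GFP 2 and 102073629 to 102073788 in WT-GFP 1, at percentiles 69.8, 33.0 and 12.7. The cap-binding protein gene Eif4e was marked in KO-GFP 2 (64.3) and WT-GFP 1 (19.6), at 138527014 to 138527271 and 138527137 to 138527298 on chromosome 3. Both peaks lay over a listed start inside the gene, with centres 952 and 1027 bp from the outermost start. Eif4g2, a relative of the scaffold Eif4g1 that lacks the eIF4E-binding part, was marked in KO-GFP 2 (68.3) and WT-GFP 1 (60).

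Among the remaining eIF4 genes, Eif4e1b, a germ cell relative of Eif4e, had peaks at 54789217 to 54789399 on chromosome 13 in KO-GFP 1, 54789123 to 54789441 in KO-GFP 2 and 54789158 to 54789296 in WT-GFP 1, at percentiles 45.9, 77.0 and 33.1. The centres of these peaks lay 768 to 849 bp from the Eif4e1b end but 125 to 206 bp from Tspan17, so the rule marks both genes. Eif4a3, a helicase of the exon junction complex, was marked in WT-GFP 1 (20.8). Eif4ebp3 was the only member marked in a KO-Acsl4 library, by a peak of 420 bp at 36664822 to 36665241 on chromosome 18 in KO-Acsl4 2, with a score of 3.46 at percentile 89.0. It lay inside the gene, 762 bp from the nearer end. Eif4ebp1, another eIF4E-binding protein gene, had no gene-end peak, and its nearest peak in any list was 11112 bp away. Eif4a2, Eif4a3l1, Eif4e2, Eif4e3, Eif4enif1, Eif4g3 and Eif4h were not marked either.

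The 12 factors outside these complexes held 9 genes marked in at least 1 library, against 1 of 4 in eIF2, 2 of 5 in eIF2B, 8 of 14 in eIF3, 9 of 17 in eIF4 and 24.5% of all genes. They counted 0 in both KO-Acsl4 libraries, 4 and 8 (33.3% and 66.7%, against 8.2% and 17.3% of all genes) in KO-GFP 1 and 2, and 6 and 0 (50.0% and 0%, against 16.7% and 2.0% of all genes) in WT-GFP 1 and 2. Eif5, whose protein makes eIF2 hydrolyse GTP at the start codon, had peaks at 111537901 to 111538137 on chromosome 12 in KO-GFP 1, 111537802 to 111538160 in KO-GFP 2 and 111537892 to 111538241 in WT-GFP 1. They covered the start in all 3, at percentiles 52.1, 82.8 and 52.2. Eif5a, which helps ribosomes through difficult peptide bonds, had peaks at 69921403 to 69921750 on chromosome 11 in KO-GFP 1, 69921319 to 69921744 in KO-GFP 2 and 69921425 to 69921698 in WT-GFP 1. Its percentiles were 94.2, 61.7 and 45.4, and 94.2 was the highest rank of any member in any list. The peak centres lay 382 to 427 bp inside the gene, upstream of another listed start, which the KO-GFP 2 peak covered. Its relative Eif5a2 was marked in KO-GFP 2 (87.4).

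Eif2a, an alternative tRNA carrier that is no subunit of eIF2, had peaks at 58525859 to 58526076 on chromosome 3 in KO-GFP 1, 58525732 to 58526053 in KO-GFP 2 and 58525784 to 58525974 in WT-GFP 1, at percentiles 32.6, 30.0 and 44.3. The Eif2a and Serp1 genes overlap head to head, and every peak centre was closer to Serp1, a gene of endoplasmic reticulum protein protection. Eif5b, the GTPase that joins the ribosomal subunits, had peaks at 37997065 to 37997264 on chromosome 1 in KO-GFP 1, 37997202 to 37997321 in KO-GFP 2 and 37997241 to 37997376 in WT-GFP 1, at percentiles 18.3, 70.7 and 10.9. The centres of those peaks lay 702 to 846 bp upstream of Eif5b and 14.5 to 130 bp from the end of Txndc9. Eif1 (39.6) and Eif1ad (49.9) were marked in KO-GFP 2, the start-site selection factor gene Eif1a in KO-GFP 2 (15.2) and WT-GFP 1 (52), and Eif6, which keeps ribosomal subunits apart, in WT-GFP 1 at percentile 0.338, the lowest rank of any member. Eif1ax, Eif1b and Eif2d had no gene-end peak.

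**Figure D2:**
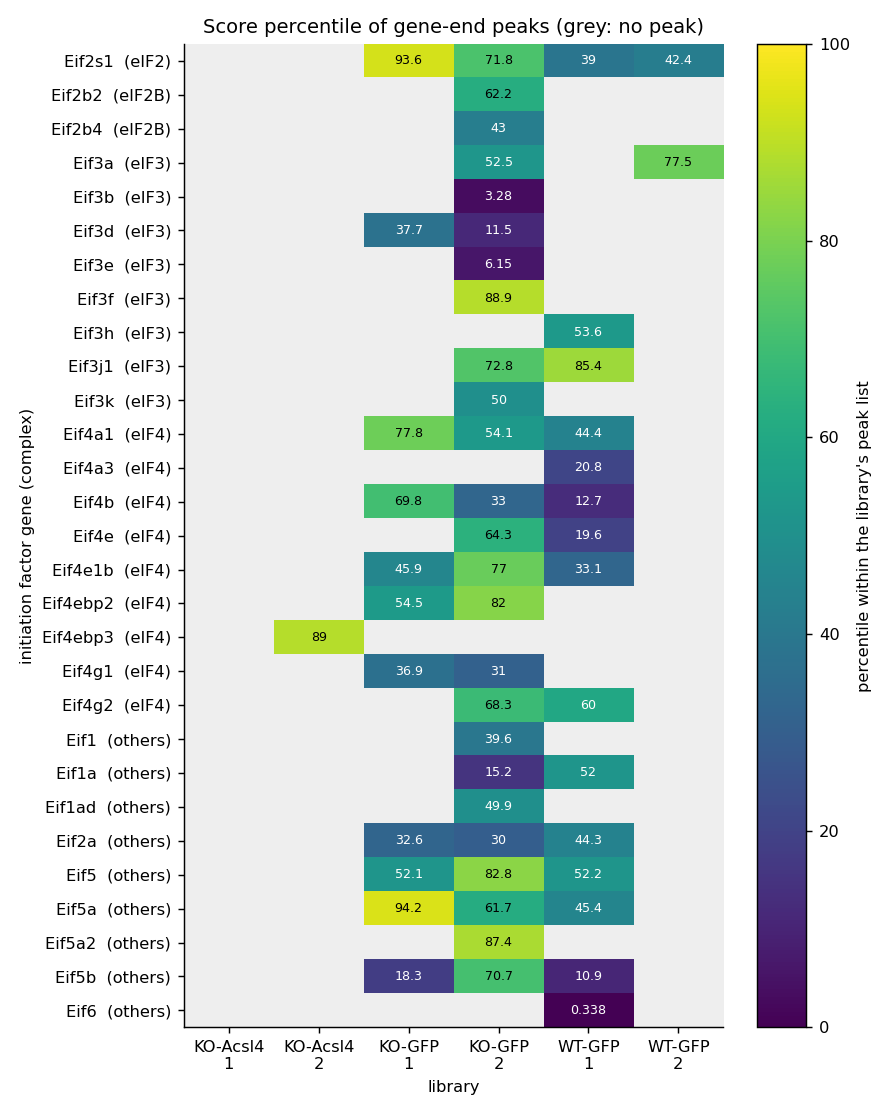
Score percentile of the gene-end peak (colour and printed value, ranked within each library's own list) for the 29 marked initiation factor genes (y axis, with complex) in each library (x axis), where grey means no peak. The 11 members of the library labelled KO-GFP 1 are all filled in that labelled KO-GFP 2, and the KO-Acsl4 columns hold 1 filled cell, Eif4ebp3.

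Member peaks ranked close to other gene-end peaks in both KO-GFP libraries and lower in the library labelled WT-GFP 1. The median percentile was 52.1 for member peaks and 53.2 for other gene-end peaks in the library labelled KO-GFP 1, 54.1 and 51.9 in KO-GFP 2, and 44.3 and 54.2 in WT-GFP 1. Median widths were 218, 217 and 162 bp for members and 210, 222 and 254 bp for other gene-end peaks in these 3 libraries. Where a member was marked in several libraries, the peaks overlapped: the 54 gene-end peaks of members formed 29 regions, 1 for each marked gene, of which 16 were found in 2 or more libraries. Without the library labelled KO-GFP 2, that number was 8. How often peaks of different libraries overlapped was not computed for genes in general.

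Most member peaks lay at the start of the gene. A start was listed for 40 of the 52 members, and all 43 peaks of these genes were nearer to the start than to the other end. The centres of 32 lay within 250 bp of a listed start, 23 covered a start, and 35 had their centre upstream. The median distance over all 43 was 120 bp. Of other gene-end peaks, 79.6%, 81.1% and 76.7% were within 250 bp in the libraries labelled KO-GFP 1, KO-GFP 2 and WT-GFP 1, where 8 of 10, 15 of 21 and 8 of 10 member peaks were. In the same order, 97.0%, 96.3% and 96.4% of other gene-end peaks were nearer the gene start. A start was covered by 47.6%, 54.0% and 53.5% of them, and by 5 of 10, 12 of 21 and 5 of 10 member peaks. Member peaks were thus placed much like those of other genes. Peaks of 10 marked members (34.5%) lay at the end of another protein-coding gene too, against 31.5% of other marked genes, so shared ends were about as common as in general. In 5 members, Eif2s1, Eif2a, Eif4e1b, Eif5b and Eif6, the other gene end was closer to every peak. Of these, Eif2s1, Eif2a, Eif4e1b and Eif5b are among the 8 members marked in 3 or more libraries. How often another end was closer was not computed over all genes. With each peak given to its nearest gene end only, the libraries labelled KO-GFP 1 and 2 marked 7 and 21 members (13.5% and 40.4%, against 6.76% and 14.5% of all genes) and those labelled WT-GFP 1 and 2 marked 10 and 1 (19.2% and 1.92%, against 14.1% and 1.61% of all genes).

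**Figure D3:**
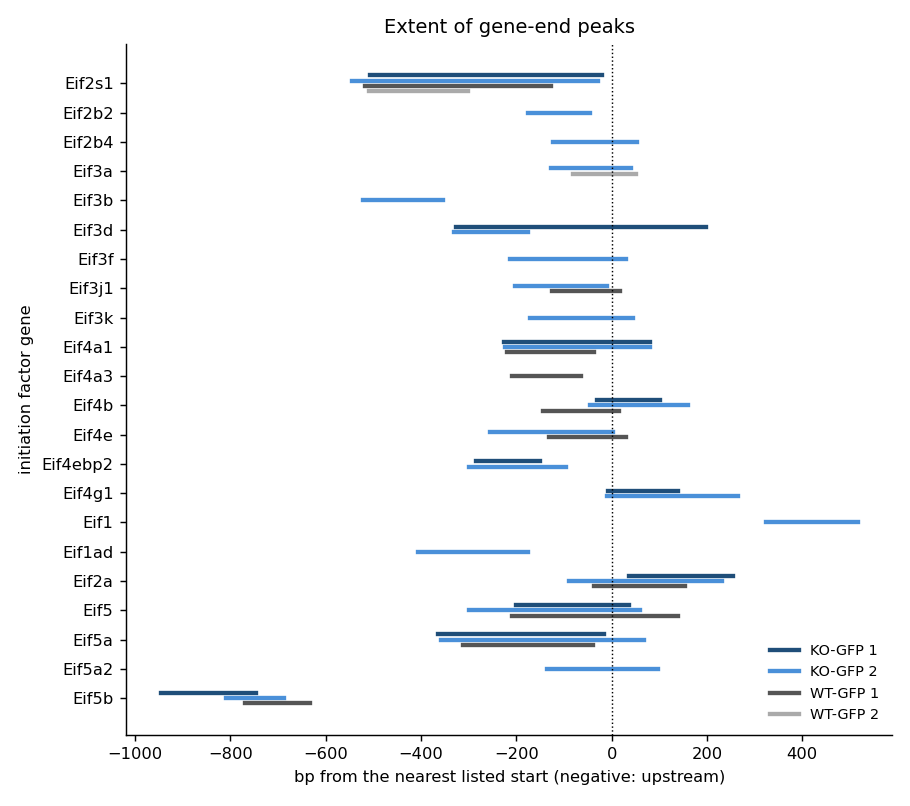
Extent of each gene-end peak (bars, coloured by library) relative to the nearest listed start of the gene (x axis, bp, negative upstream), for the marked members with a listed start (y axis). The centres of 32 of the 43 lie within 250 bp of a start, and the Eif5b bars, 702 to 846 bp upstream at their centres, stand apart.

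Member promoters were rich in GC and CpG, marked or not. From 250 bp before to 50 bp after the outermost listed start, the median GC content was 62.7% over 22 marked members and 58.3% over 18 unmarked members, against 63.0% over all 4414 marked genes and 53.3% over all 13078 unmarked genes with a listed start. The median ratio of observed to expected CpG was 0.893 in marked and 0.861 in unmarked members, against 0.823 and 0.399 over all genes. GGGCGG occurred on either strand in 77.3% of marked and 72.2% of unmarked member promoters, against 72.1% over all marked genes and 46.3% of all 17492 promoters. CCGGAAG or CGGAAGT, which overlap in part, occurred in 36.4% and 44.4% of these members, against 24.4% over all marked genes and 14.5% of all promoters. CCAAT occurred in 36.4% and 22.2%, against 46.5% over all marked genes and 39.2% of all promoters. Over all unmarked genes these shares were 37.6% for GGGCGG, 11.1% for the ETS letters and 36.7% for CCAAT. The members' shares were thus near those of marked genes for GGGCGG, above them for the ETS letters and below them for CCAAT. Set against unmarked genes, unmarked members were above for GGGCGG and the ETS letters and below for CCAAT. All of these shares rest on 22 and 18 member promoters and were not tested. TATAAA occurred in 4 of 40 member promoters (10%, against 13.3% of all), the NRF1 consensus in 1, and the forkhead letters TGTTTAC in 1, that of the unmarked Eif2s3y. TGACGTCA (CRE), TGATGCAA (bound by ATF4 with C/EBP) and the consensus of ZBTB33 and of YY1 were in none of the 40, and in 2.33%, 0.903%, 0.726% and 0.972% of all promoters. GC-rich letters are more frequent in GC-rich promoters, and these counts describe sequence and not binding.

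Other genes of translational control were marked mostly in the same 3 libraries. Of 43 genes chosen by role, 1 and 1 were marked in the libraries labelled KO-Acsl4 1 and 2, 9 and 22 in KO-GFP 1 and 2, and 18 and 2 in WT-GFP 1 and 2. These are 20.9% and 51.2% in KO-GFP 1 and 2, where initiation factors stood at 21.2% and 48.1%, and 41.9% and 4.65% in WT-GFP 1 and 2, where they stood at 28.8% and 3.85%. The shares over all genes were 8.2% and 17.3% in KO-GFP and 16.7% and 2.0% in WT-GFP. The 9 marked in 3 or more libraries (20.9%, against 6.52% of all genes) were Eif2ak3, which encodes PERK (mean percentile 89.9 over 4 libraries), the amino acid-sensing eIF2 kinase gene Eif2ak4 (66.8), the phosphatase subunit gene Ppp1cb (78.2), the eIF4E kinase gene Mknk2 (52.4), the poly(A)-binding protein gene Pabpc1 (66.2) and its regulator Paip2b (67.6), the reinitiation factor gene Denr (62.7), the elongation factor subunit gene Eef1g (57.3) and the stress transcription factor gene Ddit3 (81.7). Eif2ak4 was the only 1 of the 43 marked in KO-Acsl4 1, and Pabpc4 in KO-Acsl4 2. Mtor, Rheb and Atf4, which is translated more when eIF2 is phosphorylated, were marked in KO-GFP 2 and WT-GFP 1. Among genes listed with Mtor and Rheb, Rptor, Rps6kb2, Mknk1, Pdcd4 and Larp1 were marked in no library. Neither were Trib3 and Asns, listed with Atf4.

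Other gene families of protein synthesis were also marked mostly in KO-GFP 1, KO-GFP 2 and WT-GFP 1. In the library labelled KO-GFP 2, 48.1% of initiation factors were marked, against 36.8% of 38 aminoacyl-tRNA synthetases, 34.5% of 84 cytosolic ribosomal proteins and 33.3% of 78 mitochondrial ribosomal proteins. In KO-GFP 1 these shares were 21.2%, 26.3%, 16.7% and 15.4%, and in WT-GFP 1 28.8%, 28.9%, 22.6% and 25.6%. Initiation factors were therefore above all 3 other families in KO-GFP 2. In KO-GFP 1 and WT-GFP 1 they were above both ribosomal protein families and below the synthetases, in WT-GFP 1 by 28.8% against 28.9%. These differences were not tested. All 4 families lay above the share over all genes in these 3 libraries.

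**Figure D4:**
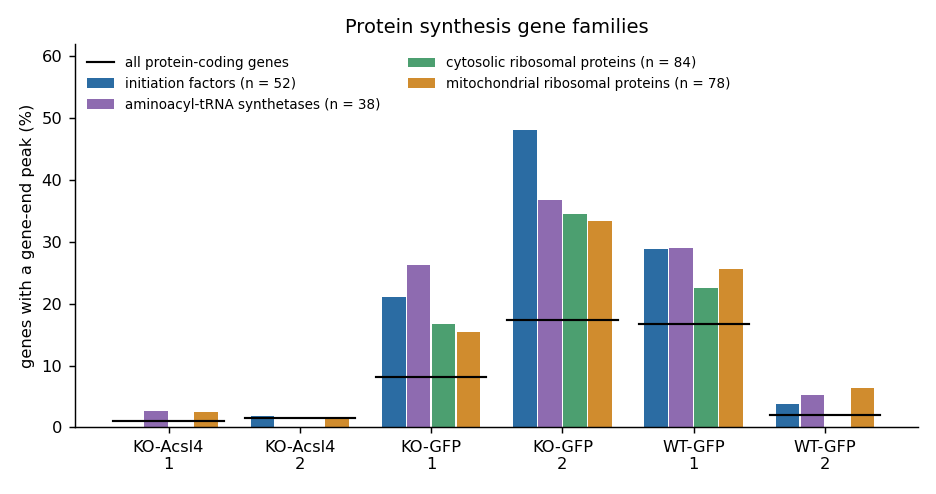
Share of genes with a gene-end peak (y axis, %) in each library (x axis) for initiation factors and 3 other families of protein synthesis, with the share over all protein-coding genes as a black line. In the library labelled KO-GFP 2 initiation factors reach 48.1% and the other families 33.3% to 36.8%, and in that labelled WT-GFP 1 all 4 lie between 22.6% and 28.9%.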

How the data were processed

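ATAC-seq peak lists of 6 mouse islet libraries were used, with chromosome, start, end, name and a score per peak and no header. Per the submitters' processing notes, which state neither role nor setting, MACS2 2.1.1, BWA 0.7.10, Trimmomatic, SAMtools and FastQC were involved. The score deposited by the authors was taken for a −log10 q-value, since each list begins slightly over 1.30, which is −log10 of 0.05. It was used only to rank peaks within a list. Pooling and read depth are not given in the sources used here. Peak number and score threshold limit what can be seen: a gene without a peak may still be open.

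The notes name human builds. The chromosomes are those of mouse. Gene-end peaks were 1.43 (KO-Acsl4 2) to 10.7 (WT-GFP 1) times as frequent as after a shift by 100000 bp along GRCm38. GRCm38 was therefore assumed, with coordinates counted from 1. Genes came from a RefSeq table without strand, and listed starts from a RefSeq promoter table that matched 40 of 52 members. Marks, the exact permutation tests and score percentiles were computed in Python 3.11.15 with numpy 2.4.6 and pandas 2.3.3, and marking was tested on simulated data. Symbol prefixes Eif2s, Eif2b, Eif3 and Eif4 set the complexes. Every member is named: those marked in 3 or more libraries, or throughout 1 group but nowhere in another, with their peaks, the others by library or as unmarked. Pathway genes are named where marked in 3 or more libraries. Pabpc4, Mtor, Rheb and Atf4, and the unmarked genes named beside them, were chosen after their values were seen. Members and lists were chosen with earlier results of these data known. Alternatives were gene-end windows of 500 and 3000 bp, the better 50% of each list, equal list lengths of 525 peaks, at least 50% of the peak inside the window, gene starts only, pairing by replicate number, leaving out each library, and, chosen after seeing the data, the nearest gene end only.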

Additional observations from a re-analysis of the deposited data

How the results depend on the processing

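Of 146 values recomputed under alternatives, none reversed, but 16, all of them counts, were classed as moved. A count has no direction to reverse. Part of the 130 values classed as the same could not change. Leaving out a library outside the comparison, or pairing by replicate number, leaves the value as it was. For the differences in share and in log2 ratio, which have a test, 0 changed direction or side of the 0.05 threshold, a threshold that this design cannot reach. The sizes did change. With the better 50% of each list by score, the difference KO-GFP minus WT-GFP was 13.5 points, KO-Acsl4 minus KO-GFP -18.3 and KO-Acsl4 minus WT-GFP -4.81. With equal lists of 525 peaks they were 2.88, -3.85 and -0.962 points, and with the nearest gene end only 16.3, -26.0 and -9.62 points. The log2 ratio difference ran between 0.48 and 1.13 over the alternatives that gave a value. With the better 50% of each list, 5 members were marked in KO-GFP and not KO-Acsl4, in place of 11, and 0 in WT-GFP and not KO-Acsl4, in place of 1. With equal lists of 525 peaks the counts were 0 for KO-GFP and not WT-GFP, 0 for KO-GFP and not KO-Acsl4 and 0 for WT-GFP and not KO-Acsl4, since the lists then marked 0 and 0 members in KO-Acsl4 1 and 2 (1.02% and 0.0868% of all genes), 3 and 1 (5.77% and 1.92%) in KO-GFP 1 and 2 (1.90% and 1.92% of all genes), and 0 and 1 (0% and 1.92%) in WT-GFP 1 and 2 (1.91% and 0.877% of all genes). With the nearest gene end only, chosen after seeing the data, 7 members were marked in KO-GFP and not KO-Acsl4 and 0 in WT-GFP and not KO-Acsl4. Leaving out each library gave 3 to 12 members for KO-GFP and not WT-GFP, 0 to 3 for the reverse, 11 to 25 for KO-GFP and not KO-Acsl4, 1 to 15 for WT-GFP and not KO-Acsl4, 0 to 1 for KO-Acsl4 only in each comparison, and 8 to 16 shared regions. The ratio of members to other genes could not be compared for KO-Acsl4, where a library marks 0 members, or at equal list lengths, where WT-GFP 1 does.

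The replicate numbers were not shown to pair the libraries: deviations from the group mean over 5357 marked genes correlated at 0.0797 between KO-GFP and WT-GFP, -0.0331 between KO-Acsl4 and KO-GFP and 0.145 between KO-Acsl4 and WT-GFP. With the replicate block, the difference of 18.3 percentage points between KO-GFP and WT-GFP had an exact sign-flip permutation p of 1 (2 pairs allow no p below 0.5), the log2 ratio difference of 0.56 a p of 0.5, and the differences of -33.7 and -15.4 points with KO-Acsl4 a p of 0.5 each. The counts of 3, 11 and 1 members are the same by construction.

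Depth is unknown, and 2 libraries against 2 cannot pass a threshold of 0.05, so these tests bear neither for nor against a difference.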

Other observations

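Some member peaks lay outside the gene-end windows. Eif4g3, a scaffold relative of Eif4g1, had no gene-end peak, but the library labelled KO-GFP 2 held a peak at 137993349 to 137993476 on chromosome 4, 1570 bp inside the gene, at percentile 13.0 and over a listed start. The library labelled KO-Acsl4 2 held peaks inside Eif3h (51844908 to 51845414 on chromosome 15, percentile 68.3), Eif4h (134626702 to 134626901 on chromosome 5, percentile 36.5) and Eif5b (38022761 to 38023116 on chromosome 1, percentile 68.3), 20047, 6830 and 24751 bp from the nearer end. Of all peaks in KO-Acsl4 2, 5.29% lay at gene ends, against 3.69% after a shift by 100000 bp. No other peak lay inside a member and away from its ends in the 6 lists.

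Just within the 1000 bp limit lay the Eif4e peaks, at 823 bp in the library labelled KO-GFP 2 and 946 bp in that labelled WT-GFP 1. Just outside it, after Eif4g3, lay peaks 1580 bp from Eif1b and 1812 bp from Eif3l in KO-Acsl4 2. Peaks in the libraries labelled KO-Acsl4 1 and KO-GFP 2 lay 2598 and 2586 bp from Eif4enif1. A window of 3000 bp accordingly marked 1 and 3 members in the libraries labelled KO-Acsl4 1 and 2.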
